A study of Mus musculus with 8 samples.

Results

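The genes of the proteasome were followed in mouse splenic hemophagocytes and resting macrophages. They were taken as all genes whose platform annotation symbol starts with Psma, Psmb, Psmc, Psmd, Psme, Psmf or Psmg and a number, with 1 single-gene probe set per gene, the one with the highest mean over all 8 arrays. This gave 50 of 19938 genes. All but 2 encode proteasome subunits, regulators or assembly chaperones; Psmc3ip and Psme3ip1 fit the spelling but encode proteins named for binding a subunit. Hemophagocytes, macrophages that hold engulfed blood cells, came from mice given 37.5 ug of CpG1826, an oligonucleotide agonist of Toll-like receptor 9, with 200 ug of the IL-10 receptor blocking antibody clone 1B1.3A. Resting macrophages came from mice given 200 uL of PBS. In both groups the mice were wild-type C57Bl/6j males aged 8 weeks, and 4 doses were injected into the peritoneum on alternate days. At 20 cells per mouse, target cells were cut by laser from touch preparations of the spleen and pooled, and 4 arrays per group were made. They are called here hemophagocytes 2, 3, 5 and 6 and resting macrophages 3, 4, 5 and 6, after the sample titles. Macrophages without engulfed cells were not sampled from the treated mice, so engulfment and treatment cannot be told apart.

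The proteasome is the protease that degrades ubiquitin-tagged proteins. Its 20S core is a barrel of alpha and beta rings whose catalytic sites lie on Psmb5, Psmb6 and Psmb7, and its 19S cap, built of Psmc ATPases and Psmd subunits, binds and unfolds the substrate. Interferon gamma induces alternative catalytic subunits, Psmb8 for Psmb5, Psmb9 for Psmb6 and Psmb10 for Psmb7, and the core that holds them, the immunoproteasome, favours peptides that fit MHC class I. Psme1 and Psme2, also induced by interferon gamma, form the PA28 activator that docks on the core in place of the cap. Antigen-presenting cells carry immunoproteasome even at rest, so the comparison asks whether the cells from the treated mice held more of these transcripts than resting macrophages did, and whether the constitutive subunits differed too.

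Values are log2 expression values as deposited, and changes are hemophagocyte minus resting macrophage. The arrays had medians of 6.10 to 6.17. Pearson correlations across genes were 0.940 to 0.965 among hemophagocyte arrays and 0.968 to 0.975 among resting arrays. Hemophagocytes 3 and 5 stood apart: when each gene was set against its median of the 8 arrays, 154 and 159 genes exceeded it by over 1 log2 unit there, 13 and 30 did so on hemophagocytes 2 and 6, and 7 to 16 on a resting array. Cd68, a lysosomal glycoprotein of macrophages, had values of 7.21, 9.66, 10.52 and 7.50 in hemophagocytes 2, 3, 5 and 6, while the resting macrophages lay between 7.29 and 7.50. Its change, 1.34, was the highest of 16 macrophage markers, of which 11 had changes above 0 and 5 below. Lyz2 had the lowest, -0.40. It stood at 5.86, 9.95, 9.96 and 6.55 on hemophagocytes 2, 3, 5 and 6, and at 8.89, 8.86, 8.71 and 7.45 on resting macrophages 3, 4, 5 and 6. For Lyz2, hemophagocytes 2 and 6 thus lay below every resting array. The mean of 16 macrophage markers ran from 6.46 to 7.39 on hemophagocyte arrays and from 6.58 to 6.70 on resting arrays. As a gauge of signal without transcript, 1190 olfactory and vomeronasal receptor genes, which serve sensory neurons, averaged 5.75 to 6.07 on hemophagocyte arrays and 5.99 to 6.16 on resting arrays. Between 11 and 22 proteasome genes on hemophagocyte arrays, and between 21 and 29 on resting arrays, lay below that mean. Only 1 to 6 members on hemophagocyte arrays, and 0 or 1 on resting arrays, exceeded the 95th percentile of the receptor genes. Probe sets differ in affinity, so this gives no level of a gene, but for many members detection cannot be told from these values.

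Promoter windows of RefSeq (GRCm38.p6), from 250 bases before to 50 after the annotated start, were listed for 42 of the 50 genes, in 46 windows. The windows of 4 genes are shown, to set induced genes beside a constitutive one. They are those of Psmb8 and Psme1, of Psmb9, whose window is shared with a neighbour, and of the constitutive Psmb5. Capitals mark matches to motifs searched on both strands, and the strand of each window is given with its coordinates. The window of Psmb8 (chr17:34197945-34198244, plus strand) holds none of the motifs given here and is in lower case throughout. A CCAAT box is in capitals in Psmb9 (chr17:34187281-34187580, minus strand). The core of the interferon-stimulated response element (ISRE), GAAA, any 2 bases and GAAA, is in capitals in Psme1 (chr14:55578244-55578543, plus strand). The core of the antioxidant response element, TGACNNNGC, is in capitals in Psmb5 (chr14:54617946-54618245, minus strand).
Psmb8: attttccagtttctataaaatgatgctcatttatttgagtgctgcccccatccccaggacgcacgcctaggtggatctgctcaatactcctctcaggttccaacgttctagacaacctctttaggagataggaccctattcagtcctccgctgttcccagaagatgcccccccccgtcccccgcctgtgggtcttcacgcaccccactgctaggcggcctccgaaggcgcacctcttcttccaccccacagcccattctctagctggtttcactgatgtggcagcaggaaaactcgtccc
Psmb9: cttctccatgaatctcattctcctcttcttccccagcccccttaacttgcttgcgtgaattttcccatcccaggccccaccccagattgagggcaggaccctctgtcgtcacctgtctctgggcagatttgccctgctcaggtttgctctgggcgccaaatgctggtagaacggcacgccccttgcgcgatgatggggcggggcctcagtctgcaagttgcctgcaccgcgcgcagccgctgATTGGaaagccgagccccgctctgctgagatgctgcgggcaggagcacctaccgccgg
Psme1: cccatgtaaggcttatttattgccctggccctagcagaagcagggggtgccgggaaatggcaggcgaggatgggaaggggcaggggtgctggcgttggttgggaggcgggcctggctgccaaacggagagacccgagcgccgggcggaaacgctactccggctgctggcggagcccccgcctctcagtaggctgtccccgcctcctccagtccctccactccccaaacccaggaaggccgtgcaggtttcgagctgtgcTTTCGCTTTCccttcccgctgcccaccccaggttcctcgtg
Psmb5: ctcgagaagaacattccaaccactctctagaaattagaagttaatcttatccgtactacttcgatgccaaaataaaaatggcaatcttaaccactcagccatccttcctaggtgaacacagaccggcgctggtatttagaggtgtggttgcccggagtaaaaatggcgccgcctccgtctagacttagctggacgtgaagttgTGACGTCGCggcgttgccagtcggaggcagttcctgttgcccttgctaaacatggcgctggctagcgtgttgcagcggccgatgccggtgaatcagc

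The ISRE core was in 5 of the 46 windows (10.9%), of Psme1, Psmb3, Psmd4, Psmd9 and Psmg4, against 3.44% of all 32851 windows. The antioxidant response core was in 6 (13%), among them Psmb5 and Psmb6, against 12.4% of all, and the CCAAT box in 16 (34.8%) against 37.4%. Neither of the 2 longer motifs was in the windows of Psmb8, Psmb9, Psmb10 or Psme2, which says only that these letters are not in those 300 bases. The Psmb9 window overlaps by 275 bases with that of Tap1, which encodes a subunit of the peptide transporter and is read from the opposite strand. These matches are a description of sequence and were not set against the array values by any test.

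Across all genes limma called 2 higher and 0 lower (0.01% and 0% of genes) at an adjusted p under 0.05, and of the 50 proteasome genes 0 passed in either direction. The lowest adjusted p among them was 0.75. At an unadjusted p under 0.05, 6 members had higher and 2 had lower values in hemophagocytes, or 12% and 4% of members, where 1.53% and 5.05% of all genes did. The 6 were Psmb8, Psmb10, Psme1, Psmd4, Psmc1 and Psma3, and the 2 were Psmd12 and Psmf1. The groups did not overlap in 4 members with higher values (8.0%, against 0.802% of all genes) and in 1 with lower values (2.0%, against 2.9%). Changes above 0 were found in 38 of 50 members (76.0%) and in 36.1% of all genes, with medians of 0.08 and -0.04. The share of all genes depends on scaling. Their median change was -0.012 with quantile normalization, -0.010 with centring on array medians and 0.0024 with cyclic loess. In the same order, 39, 40 and 42 members had changes above 0. The split over all genes at an unadjusted p depended on scaling: 306 genes were higher and 1006 lower as deposited, while quantile normalization gave 488 higher and 748 lower, centring on array medians 495 and 691, and cyclic loess 611 and 549. Of the members, 6 were higher and 1 lower with quantile normalization and with centring, and 7 and 1 with cyclic loess. With hemophagocytes 3 and 5 left out, 0 members had higher values at an unadjusted p under 0.05 and 1 had lower ones, where 394 and 544 of the 19938 genes did. In pooled cells, fewer cells that hold a transcript and less of it per cell cannot be told apart.

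**Figure D1:**
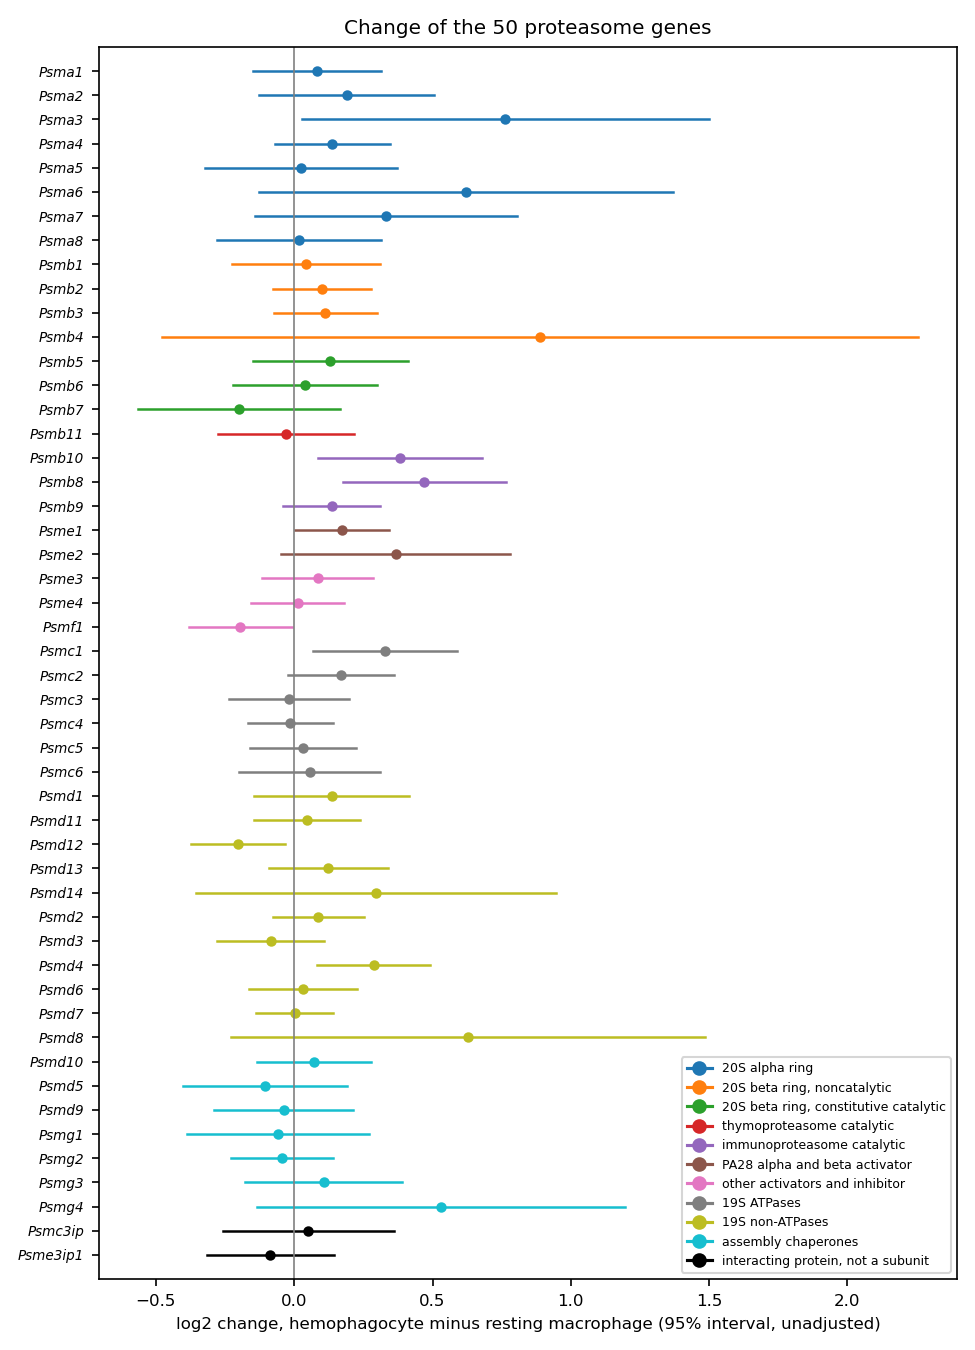
Log2 change of each of the 50 proteasome genes (points, hemophagocyte minus resting macrophage, 4 arrays per group) with its 95% interval (lines, limma, not adjusted for the number of genes), coloured by role. The intervals of 6 genes lie above 0 and those of 2 below 0, and the widest belong to Psmb4, Psmd8, Psma6 and Psma3, which were high on 1 or 2 hemophagocyte arrays.

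The genes of the immunoproteasome and PA28 all had higher means in hemophagocytes, by 0.14 to 0.47 log2 units, and none passed the test. Their median change was 0.37, and 0.06 over the 45 other members. The median of the 5 was 0.18 without hemophagocyte 5, 0.23 without resting macrophage 5 and 0.24 without resting macrophage 6. Psmb8, the induced chymotrypsin-like subunit (also LMP7), stood at 6.54, 7.14, 7.12 and 6.77 on hemophagocytes 2, 3, 5 and 6, and at 6.52, 6.28, 6.35 and 6.53 on resting macrophages 3, 4, 5 and 6. Hemophagocytes 3 and 5 were highest, and hemophagocyte 2 exceeded the highest resting array by only 0.0064. The group means were 6.89 ± 0.29 in hemophagocytes and 6.42 ± 0.13 in resting macrophages (SD, n = 4 each), a 1.39-fold difference (log2 change 0.47, SE 0.13, limma adjusted p = 0.75). Without hemophagocytes 3 and 5 the change was 0.23. Psmb8 also lies next to Psmb9 and the transporter genes in the class II region of the MHC, as background.

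Psmb10, the induced trypsin-like subunit (MECL-1), stood at 6.27, 6.28, 6.42 and 6.35 on hemophagocytes 2, 3, 5 and 6, and at 6.23, 6.01, 5.50 and 6.05 on resting macrophages 3, 4, 5 and 6. Here the 4 hemophagocyte arrays lay close together, the spread was in the resting arrays, and the gap between the groups was 0.041. On resting macrophages 4, 5 and 6 Psmb10 lay below the mean of the receptor genes on those arrays (6.14, 6.16 and 6.13), so its detection there cannot be told. On the other arrays it lay above that mean. The means were 6.33 ± 0.07 in hemophagocytes and 5.95 ± 0.31 in resting macrophages (log2 change 0.38, SE 0.13, limma adjusted p = 0.75). Without resting macrophage 5, the lowest array, the change was 0.23, and without hemophagocytes 3 and 5 it was 0.36. Psmb9, the induced caspase-like subunit (LMP2), stood at 7.10, 7.27, 7.23 and 7.28 on the hemophagocyte arrays and at 6.99, 7.11, 7.01 and 7.23 on the resting arrays, in the same order. The groups overlapped, and the change was 0.14 (SE 0.08, limma adjusted p = 0.75, 95% interval -0.04 to 0.31).

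Psme1, the alpha subunit of PA28, stood at 7.68, 7.91, 7.76 and 7.81 on hemophagocytes 2, 3, 5 and 6, and at 7.65, 7.66, 7.66 and 7.49 on resting macrophages 3, 4, 5 and 6. All 4 hemophagocyte arrays lay above the resting ones, by a gap of 0.017, and the change was 0.17 (SE 0.08, limma adjusted p = 0.75). Psme2, the beta subunit, stood at 6.56, 6.45, 7.34 and 6.62 on hemophagocytes 2, 3, 5 and 6, and at 6.43, 6.56, 6.52 and 6.01 on resting macrophages 3, 4, 5 and 6. Hemophagocyte 5 was high, resting macrophage 6 was low and the other 6 arrays overlapped. On resting macrophage 6 Psme2 lay below the mean of the receptor genes on that array (6.13), so its detection there cannot be told. Its change was 0.37 (SE 0.19, limma adjusted p = 0.75), 0.17 without hemophagocyte 5 and 0.24 without resting macrophage 6. A second probe set, which the annotation assigns to both Psme2 and its copy Psme2b and which was not used for the gene, had a change of 0.26 (SE 0.16).

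**Figure D2:**
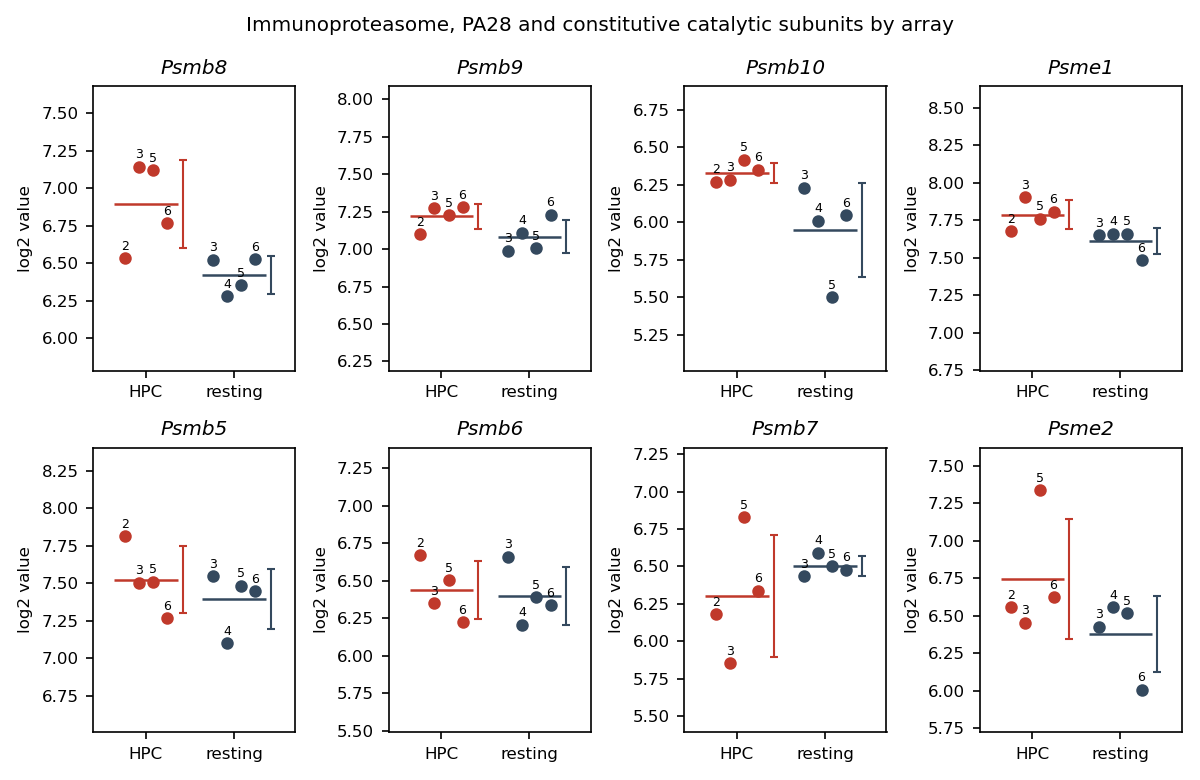
Log2 values of Psmb8, Psmb9, Psmb10 and Psme1 (top) and Psmb5, Psmb6, Psmb7 and Psme2 (bottom), with hemophagocytes (HPC) left and resting macrophages right. Points are arrays labelled with their number, horizontal lines group means, and bars beside them 1 SD (n = 4); each axis spans the same number of log2 units and does not start at 0. The groups do not overlap in Psmb8, Psmb10 and Psme1, by gaps of 0.0064, 0.041 and 0.017, and overlap in the other genes.

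Of the 3 constitutive catalytic subunits 2 had changes above 0 and 1 below, and 0 passed or reached an unadjusted p under 0.05. With a replicate block all 3 lay below 0, at -0.06 for Psmb5, -0.10 for Psmb6 and -0.13 for Psmb7. Hemophagocyte 2 and resting macrophage 4 have no same-numbered partner. The block fit therefore compares only arrays 3, 5 and 6 of each group. Psmb5, the chymotrypsin-like subunit that Psmb8 replaces, stood at 7.81, 7.50, 7.51 and 7.27 on hemophagocytes 2, 3, 5 and 6, and at 7.54, 7.10, 7.48 and 7.44 on resting macrophages 3, 4, 5 and 6. Its change was 0.13 (95% interval -0.15 to 0.41), and hemophagocyte 2, the lowest of its group for Psmb8, was the highest array for Psmb5. The Psmb5 change was 0.03 without hemophagocyte 2 or without resting macrophage 4, and 0.22 without hemophagocyte 6. Psmb6, the caspase-like subunit, stood at 6.67, 6.35, 6.50 and 6.22 on the hemophagocyte arrays and at 6.66, 6.21, 6.39 and 6.34 on the resting arrays. Its change was 0.04 (95% interval -0.22 to 0.30). Psmb7, the trypsin-like subunit, stood at 6.18, 5.86, 6.83 and 6.34 on the hemophagocyte arrays and at 6.43, 6.59, 6.50 and 6.48 on the resting arrays. Its hemophagocytes spread on both sides of the closely grouped resting arrays, with a change of -0.20 (95% interval -0.57 to 0.16). This was -0.38 without hemophagocyte 5 and -0.05 without hemophagocyte 3, and 0.10 with array background as a covariate. Psmb11, the catalytic subunit of the thymus, is not known to be made in macrophages and stood at 5.83, 6.38, 6.14 and 6.05 on hemophagocytes 2, 3, 5 and 6, and at 6.03, 6.27, 6.10 and 6.12 on resting macrophages 3, 4, 5 and 6. Its groups overlapped, with a change of -0.03 that cyclic loess turned to 0.0059.

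The switch was described as the change of each induced subunit minus that of the constitutive subunit it replaces. Differences between 2 probe sets on an array show unequal change and not which is more abundant, and they were centred on the mean of the resting arrays. For Psmb8 minus Psmb5 they were -0.30, 0.61, 0.58 and 0.47 on hemophagocytes 2, 3, 5 and 6, and -0.05, 0.15, -0.16 and 0.06 on resting macrophages 3, 4, 5 and 6. Hemophagocytes 3, 5 and 6 lay above all resting arrays and hemophagocyte 2 below them all. The mean difference was 0.34, with 0.08 when hemophagocytes 3 and 5 were left out and 0.56 without hemophagocyte 2. With a replicate block it was 0.61, but in that fit hemophagocyte 2 and resting macrophage 4 have no part in the change. For Psmb10 minus Psmb7 the values were 0.64, 0.98, 0.14 and 0.57 on the hemophagocyte arrays and 0.35, -0.03, -0.45 and 0.12 on the resting arrays. Here hemophagocyte 5 lay within the resting range, and the mean difference was 0.58, or 0.23 with array background as a covariate. For Psmb9 minus Psmb6 they were -0.26, 0.23, 0.04 and 0.37 on the hemophagocyte arrays and -0.36, 0.22, -0.07 and 0.21 on the resting arrays, with a mean difference of 0.10, or -0.02 without resting macrophage 3, 0.21 without hemophagocyte 2 and 0.29 with the block. The groups overlapped in 3 of 3 pairs. A score over chosen genes was given no test.

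Per array, the median deviation of the 5 immunoproteasome and PA28 genes from their own medians was 0.0084, 0.10, 0.17 and 0.11 on hemophagocytes 2, 3, 5 and 6, and -0.02, -0.06, -0.16 and -0.18 on resting macrophages 3, 4, 5 and 6. For the 45 other members it was between -0.0088 and 0.06 on hemophagocyte arrays and between -0.02 and 0.02 on resting arrays. Over all genes it was -0.06 to 0.0053 on hemophagocyte arrays and 0.0069 to 0.01 on resting arrays. The 5 induced genes therefore had the groups apart, hemophagocytes higher, with hemophagocyte 2 (0.0084) and resting macrophage 3 (-0.02) the nearest arrays. Over all genes the groups were also apart, the other way, and for the 45 other members they overlapped. Groups apart in such a median are thus not particular to the 5 genes, which were chosen with earlier results of these data known. With hemophagocytes 3 and 5 left out, the median change was 0.21 for the 5 genes and 0.01 for the other 45.

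**Figure D3:**
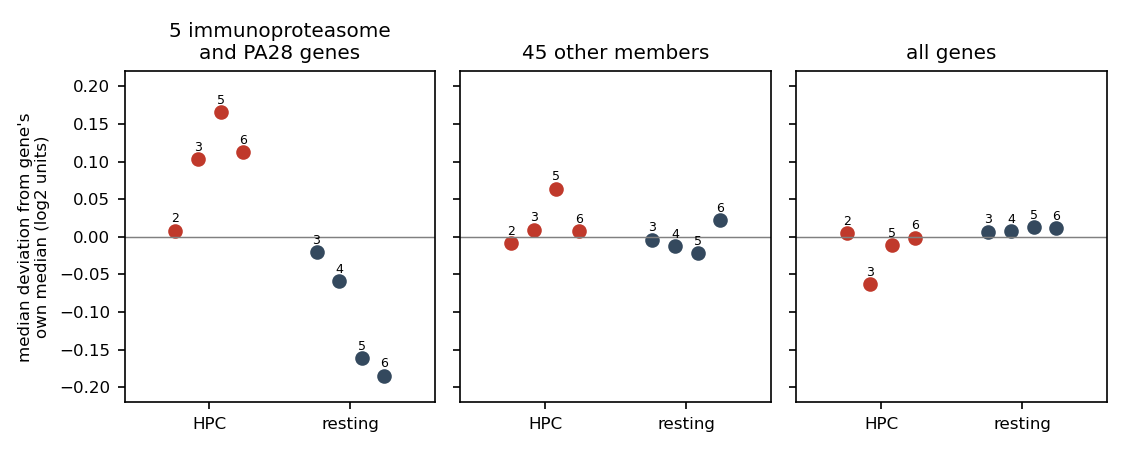
Median deviation of a list's genes from each gene's own median of 8 arrays (log2 units), per array, for the 5 immunoproteasome and PA28 genes, the 45 other members and all 19938 genes. Points are arrays labelled with their number, hemophagocytes (HPC) left and resting macrophages right; the 5 genes run from 0.0084 to 0.17 in hemophagocytes and from -0.18 to -0.02 in resting macrophages.

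The alpha ring, which gates the core, had changes above 0 in all 8 genes (Psma8, the testis form, included), with a median of 0.16, and 0 passed. Psma3 had the highest change of the ring, 0.76 (SE 0.33, limma adjusted p = 0.75), and stood at 4.91, 6.40, 6.87 and 5.72 on hemophagocytes 2, 3, 5 and 6, and at 5.05, 5.51, 5.15 and 5.14 on resting macrophages 3, 4, 5 and 6. Hemophagocytes 3, 5 and 6 lay above every resting array, and hemophagocyte 2 lay below them all. The change was 0.46 without hemophagocyte 5, 1.12 without hemophagocyte 2 and 0.10 without hemophagocytes 3 and 5. On hemophagocytes 2 and 6 and on every resting array Psma3 lay below the mean of the receptor genes, so its detection there cannot be told. Its 2 dimmer probe sets were also highest on hemophagocyte 5, at 6.33 and 6.77, and next on hemophagocyte 3, at 5.53 and 5.62, with changes of 0.52 and 0.56. The annotation lists the same transcripts for all 3 probe sets, so they are not independent readings. Psma6 and Psma7 were singled out after their values were seen. Psma6 stood at 7.92 on hemophagocyte 5, at 6.14 to 6.27 on the other hemophagocytes and at 5.80 to 6.23 on resting arrays. Psma7 stood at 6.09 on hemophagocyte 3, against 4.93 to 5.15 on the other hemophagocytes and 4.85 to 5.28 on resting arrays. On every array but hemophagocyte 3 Psma7 lay below the mean of the receptor genes. Psma8 had the lowest change of the ring, 0.02, and stood at 3.91, 3.57, 3.46 and 3.85 on hemophagocytes 2, 3, 5 and 6, and at 3.52, 3.48, 3.74 and 3.99 on resting macrophages 3, 4, 5 and 6, so that the groups overlapped. The direction of Psma8 turned in several alternatives, to -0.12 with a replicate block. Psma8 lay below the mean of the receptor genes on every array.

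The noncatalytic beta subunits Psmb1, Psmb2, Psmb3 and Psmb4, which complete the inner rings, had changes of 0.04 to 0.89, and 0 of 4 passed. Psmb4 had the highest change of all 50 genes, and this rested on 1 array. It stood at 6.93, 10.28, 7.16 and 6.96 on hemophagocytes 2, 3, 5 and 6, and at 7.06, 6.65, 7.12 and 6.95 on resting macrophages 3, 4, 5 and 6. The change was 0.89 (SE 0.62, limma adjusted p = 0.77), 0.07 without hemophagocyte 3 and -0.35 with array background as a covariate. The lowest change of these was that of Psmb1, 0.04 (95% interval -0.23 to 0.31), with 6.09, 6.49, 5.99 and 5.89 on hemophagocytes 2, 3, 5 and 6, and 6.16, 5.95, 6.03 and 6.16 on resting macrophages 3, 4, 5 and 6. Only hemophagocyte 3 lay above the resting range, and the change turned to -0.08 without hemophagocyte 3. The brighter of 2 Psmb3 probe sets had a change of 0.11 and the dimmer one 0.46 (SE 0.37), with its highest value, 5.49, again on hemophagocyte 3.

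Among the 6 ATPases of the cap, which unfold the substrate, 4 had changes above 0, 0 passed and the median was 0.04. Psmc1 had the highest change, 0.33 (SE 0.12, limma adjusted p = 0.75). It stood at 7.09, 6.83, 6.78 and 6.51 on hemophagocytes 2, 3, 5 and 6, and at 6.46, 6.30, 6.52 and 6.62 on resting macrophages 3, 4, 5 and 6. Its highest array was hemophagocyte 2, the groups overlapped through hemophagocyte 6, and without hemophagocytes 3 and 5 the change was 0.32. A dimmer Psmc1 probe set had a change of 0.17 (SE 0.14). Psmc3 had the lowest change of the ATPases, -0.02 (95% interval -0.24 to 0.20), and stood at 7.58, 7.57, 7.71 and 7.61 on hemophagocytes 2, 3, 5 and 6, and at 7.74, 7.72, 7.74 and 7.34 on resting macrophages 3, 4, 5 and 6. The 4 hemophagocytes lay between resting macrophage 6 and the other resting arrays. Its sign turned after median centring (0.0081) and cyclic loess (0.03). Psmc2, Psmc4, Psmc5 and Psmc6 had changes of -0.01 to 0.17.

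Of the 11 non-ATPase subunits of the cap, 9 had changes above 0, with a median of 0.09, and 0 passed. Psmd4, a receptor for ubiquitin chains, stood at 6.57, 6.76, 6.82 and 6.46 on hemophagocytes 2, 3, 5 and 6, and at 6.33, 6.45, 6.27 and 6.41 on resting macrophages 3, 4, 5 and 6. The groups did not overlap, by a gap of 0.0043, and the change was 0.29 (SE 0.09, limma adjusted p = 0.75), or 0.15 without hemophagocytes 3 and 5. Psmd12, a scaffold subunit of the lid, was the member with lower values on all hemophagocyte arrays, at 5.77, 5.59, 5.77 and 5.83 on hemophagocytes 2, 3, 5 and 6, against 5.92, 5.87, 6.05 and 5.93 on resting macrophages 3, 4, 5 and 6. Its change was -0.20 (SE 0.08, limma adjusted p = 0.75), with a gap of 0.043 between the groups. On every one of the 8 arrays Psmd12 lay below the mean of the receptor genes.

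Psmd8, a lid subunit, had the highest change of the non-ATPases, 0.63 (SE 0.39, limma adjusted p = 0.75). It stood at 5.64, 7.75, 6.43 and 5.57 on hemophagocytes 2, 3, 5 and 6, and at 5.62, 5.88, 5.83 and 5.56 on resting macrophages 3, 4, 5 and 6. Hemophagocytes 3 and 5 alone lay above the resting range, and the change was 0.16 without hemophagocyte 3 and -0.11 without both. On all arrays but these Psmd8 lay below the mean of the receptor genes, so its detection there cannot be told. Psmd14, Psmd2 and Psmd7 were singled out after their values were seen. Psmd14, the deubiquitinase of the lid, stood at 6.31 on hemophagocyte 5, against 4.78 to 4.999997 on the other hemophagocytes and 4.61 to 5.16 on resting arrays. On every array but hemophagocyte 5 Psmd14 lay below the mean of the receptor genes. In Psmd2, a base subunit that binds ubiquitin-like shuttle proteins, the 2 probe sets had changes of 0.09 and -0.05. Psmd7, the partner of Psmd14, had the change nearest to 0 (95% interval -0.14 to 0.14).

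Among the remaining regulators and chaperones 0 passed. Psmf1, an inhibitor of the proteasome, stood at 6.15, 5.98, 6.15 and 6.04 on hemophagocytes 2, 3, 5 and 6, and at 6.33, 6.25, 6.41 and 6.09 on resting macrophages 3, 4, 5 and 6. Resting macrophage 6 lay within the hemophagocyte range, and the change was -0.20 (SE 0.08, limma adjusted p = 0.75). Psme3, which forms a nuclear PA28 activator, stood at 6.19, 6.05, 6.26 and 6.32 on hemophagocytes 2, 3, 5 and 6, and at 5.93, 6.14, 6.14 and 6.26 on resting macrophages 3, 4, 5 and 6. The groups overlapped, with a change of 0.08 for Psme3 (0.02 without resting macrophage 3 and 0.14 without hemophagocyte 3), and Psme4, the PA200 activator, had a change of 0.01. Of the 7 assembly chaperones, 3 had changes above 0, with a median of -0.04. Psmg4 had the highest change of these, 0.53 (SE 0.30, limma adjusted p = 0.75), and stood at 6.97, 8.60, 6.94 and 7.33 on hemophagocytes 2, 3, 5 and 6, and at 6.76, 6.99, 7.04 and 6.94 on resting macrophages 3, 4, 5 and 6. Without hemophagocyte 3 it was 0.15. Psmd5, a chaperone of the cap base, had the lowest, -0.11, with 5.30, 5.10, 5.47 and 5.79 on hemophagocytes 2, 3, 5 and 6, and 5.63, 5.38, 5.44 and 5.63 on resting macrophages 3, 4, 5 and 6. The hemophagocytes lay on both sides of the resting range. On every array Psmd5 lay below the mean of the receptor genes. The change of Psmd5 was -0.23 without hemophagocyte 6, -0.0021 without hemophagocyte 3, and turned to 0.02 without hemophagocytes 3 and 5.

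High values of single members were concentrated on 2 arrays. Over 1 log2 unit above their own medians lay 5 members on hemophagocyte 3 (Psma3, Psma7, Psmb4, Psmd8 and Psmg4) and 3 on hemophagocyte 5 (Psma3, Psma6 and Psmd14), where 0.772% and 0.797% of all genes did. On hemophagocytes 2 and 6 and on each resting array the count of members was 0, against 0.0652% and 0.15% of all genes on hemophagocytes 2 and 6 and 0.0602%, 0.0802%, 0.0652% and 0.0351% on resting macrophages 3, 4, 5 and 6. Psma3 was the 1 gene high on both arrays. None of the 5 immunoproteasome and PA28 genes was among them, the highest being Psme2 on hemophagocyte 5. These are the 2 arrays on which Cd68 stood high. Lyz2 and C1qc also had their highest values there, C1qc at 8.57 and 9.58. Adgre1 was high only on hemophagocyte 5 (7.38, against 5.76 on hemophagocyte 3 and 5.67 to 5.89 on resting arrays). Csf1r was high on neither (6.32 and 6.44, against 6.33 to 6.48). The other macrophage markers are not given by array. The part that the general excess of high values on hemophagocytes 3 and 5 has in the members' values was not tested.

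**Figure D4:**
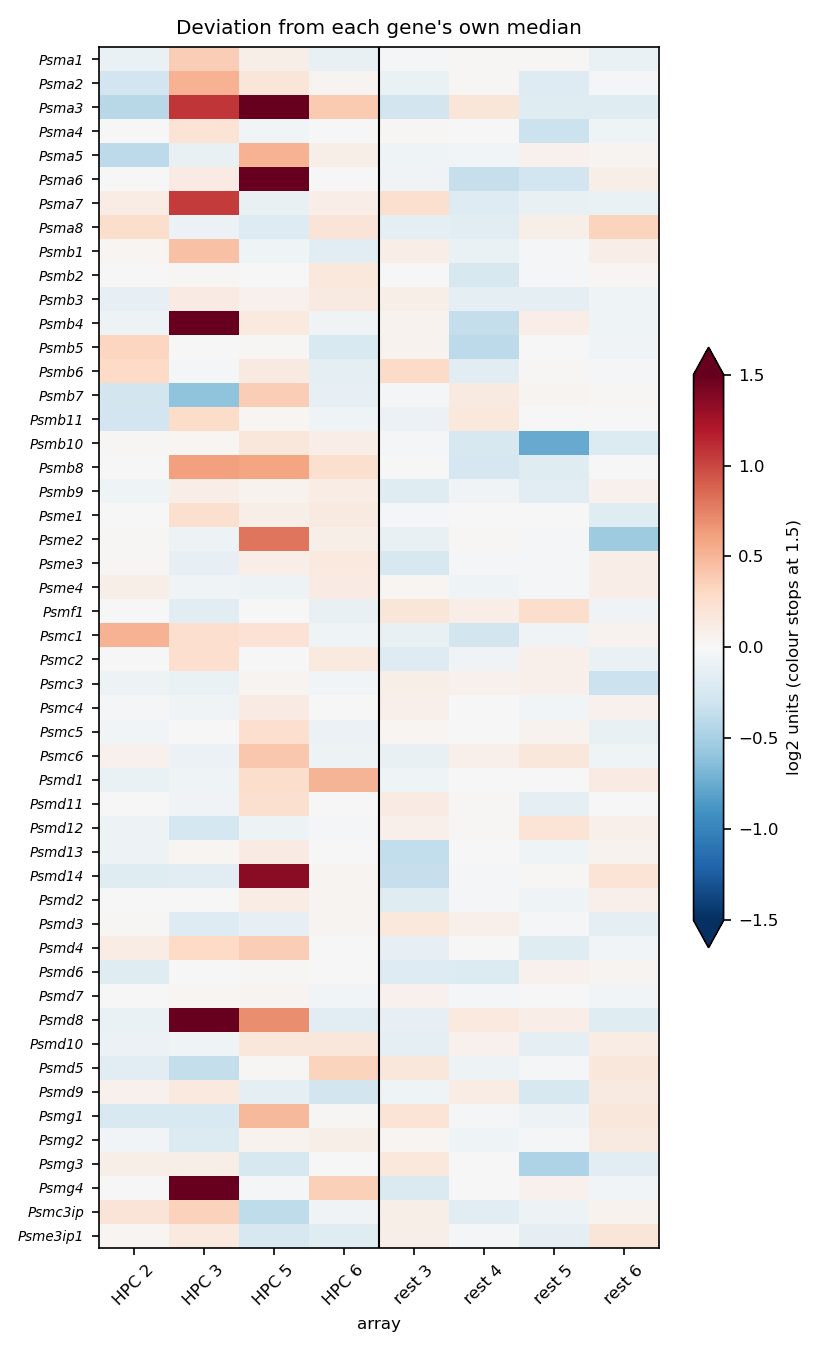
Deviation of each of the 50 genes (rows, ordered by role) from its own median of 8 arrays (log2 units, red above and blue below, colour stops at 1.5) on the hemophagocyte (HPC, left of the line) and resting macrophage arrays (right). The 8 values more than 1 log2 unit above the median all lie on HPC 3 and HPC 5, 5 and 3 of them.

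Genes that work with the proteasome were read from lists by role. Of 19 partners outside the symbol rule (assembly, deubiquitination, shuttle and control genes), 16 were measured by a single-gene probe set, 12 had changes above 0, 0 passed and 0 reached an unadjusted p under 0.05, with a median change of 0.05. Rad23b, a shuttle for ubiquitin-tagged proteins, had a change of -0.20 and Ube3c, a ubiquitin ligase of the proteasome, 0.12. Nfe2l1, the transcription factor that raises proteasome genes when the protease is inhibited, stood at 7.36 to 7.51 in hemophagocytes and 7.17 to 7.54 in resting macrophages. Pomp, the maturation factor of the core, was singled out after its values were seen, as it stood at 8.92 on hemophagocyte 5, at 5.89 to 6.42 on the other hemophagocytes and at 5.76 to 6.36 on resting arrays. Of 8 genes of ubiquitin supply and unfolding, 3 were measured (Ufd1 at 0.09, Nploc4 at 0.05 and Vcp at -0.06), and the others were not analysed here.

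Among the interferon regulators of the immunoproteasome the changes were small next to those of its subunits. Of 8 listed genes 7 were measured, with changes of -0.09 to 0.04, a median of 0.0062, and 0 that passed or reached an unadjusted p under 0.05. Irf1, the transcription factor that induces Psmb9 and Tap1 in response to interferon gamma, stood at 6.68 to 6.94 in hemophagocytes and 6.70 to 6.95 in resting macrophages. The receptor chain Ifngr2 had a change of -0.09 and Ifngr1 0.03. Nlrc5, the activator of class I genes, had a change of 0.0055 (SE 0.10). Nlrc5 has 19 single-gene probe sets and Irf1 has 2. Only the brightest of each was read, and the others are not given here.

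Of the 8 genes of peptide transport, trimming and class I loading, 5 had changes above 0, with a median of 0.01, and 0 passed. Tap1, which shares its promoter window with Psmb9, stood at 6.96, 7.15, 7.01 and 6.94 on hemophagocytes 2, 3, 5 and 6, and at 7.13, 7.03, 7.01 and 6.92 on resting macrophages 3, 4, 5 and 6. The groups overlapped throughout, with a change of -0.01 for Tap1 (95% interval -0.18 to 0.16) and 0.14 for Psmb9. B2m, the light chain of class I, was the 1 gene of this list at an unadjusted p under 0.05, with 5.17, 10.25, 10.34 and 9.67 on hemophagocytes 2, 3, 5 and 6, and 4.60 to 6.08 on resting arrays. Pdia3, a chaperone of the loading complex, stood at 4.16, 6.88, 6.03 and 4.48 on hemophagocytes 2, 3, 5 and 6, and at 4.40, 4.78, 4.41 and 4.32 on resting macrophages 3, 4, 5 and 6, with a change of 0.91. B2m lay below the mean of the receptor genes on hemophagocyte 2 and on every resting array. Pdia3 lay below it on every array but hemophagocyte 3. Detection of both genes on those arrays cannot be told. For B2m, as for Psmb8, hemophagocytes 3, 5 and 6 were the highest arrays and hemophagocyte 2 the lowest of its group. The same held for Psma3 of the alpha ring, which is not among the induced genes.

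Markers of other cell types, some of which carry immunoproteasome at rest, were set beside these values. The mean of 9 dendritic cell markers ran from 6.80 to 6.93 on hemophagocyte arrays and from 6.91 to 6.99 on resting arrays. Of their changes 8 of 9 were below 0, so that 11.1% were above 0, against 36.1% of all genes. For 10 of 11 T cell markers the mean was 6.24 to 6.32 in hemophagocytes and 6.28 to 6.30 in resting macrophages. In the same order it was 6.15 to 6.36 and 6.26 to 6.41 for 8 of 9 B cell markers. For 9 NK cell markers it was 6.07 to 6.33 and 6.34 to 6.44. At an unadjusted p under 0.05, 2 of the NK genes had lower values (22.2%, against 5.05% of all genes). Neutrophil markers (10 of 10 measured) averaged 6.13 to 6.65 in hemophagocytes and 6.17 to 6.21 in resting macrophages. None of these lists had a member past the threshold, and their part in the proteasome values was not tested.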

How the data were processed

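The authors deposited 1 table of log2 values, 35556 probe sets on 8 Affymetrix mouse Gene ST 1.0 arrays, whose scale was judged from its range. Affymetrix Expression Console 1.1 is named per the submitters' processing notes. Background correction, probe summary, normalization and genome build were not stated in the sources used here. WT-Ovation One-Direct amplified the RNA, per the labels' protocols. No scaling or filter was added to the deposited values. The platform annotation gave 1 gene for 21789 probe sets, several for 1621 and none for 12146, and probe sets of the last 2 kinds were left out. Arrays have no read depth, and 4 per group limit the precision.

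Groups came from sample titles. Nothing says that arrays are separate mice, so p-values cover only spread between these samples, part of which may be technical. The groups were tested gene by gene using limma 3.58.1 (lmFit, eBayes; R 4.3.3), adjusted by Benjamini-Hochberg over 19938 genes at 0.05, and the scripts were tested on simulated data. A further motif search is not reported here. The members, lists and alternatives were chosen with earlier results of these data known. Values on every array are given for the 5 induced genes, their 3 counterparts, members at an unadjusted p under 0.05 or with groups apart, and the extremes of each role list. The pathway lists name members by the same p, otherwise the 2 of smallest p. Nfe2l1, Pomp, Vcp, Irf1, Nlrc5, Tap1 and Pdia3 fall outside that rule and were chosen after their values were seen. Alternatives were quantile, median and cyclic loess scaling, a level filter, an intensity trend with robust prior, array weights, averaged probe sets, arrays left out, a replicate block, and array background as a covariate. The replicate block compares only arrays 3, 5 and 6 of each group, as hemophagocyte 2 and resting macrophage 4 have no same-numbered partner.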

Additional observations from a re-analysis of the deposited data

Results flagged for a closer look

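Among the 50 proteasome genes, 100 groups of 4 arrays were examined for 1 array far from the other 3, by Dixon's ratio, and 7 held one. Chance flags about 1 in 20 groups. High arrays were found 4 times. Psmb4 stood at 10.28 on hemophagocyte 3, with the other hemophagocytes at 6.93 to 7.16. Psma6 stood at 7.92 on hemophagocyte 5, against 6.14 to 6.27, and Psmd14 at 6.31 on hemophagocyte 5, against 4.78 to 4.999997. Psmb2 stood at 6.06 on hemophagocyte 6, against 5.89 to 5.91. Low arrays were found 3 times. Psmd6 stood at 5.73 on hemophagocyte 2, with the others at 5.90 to 5.93. Psme1 stood at 7.49 on resting macrophage 6, against 7.65 to 7.66, and without that array its change was 0.13. Psmc3 stood at 7.34 on resting macrophage 6, against 7.72 to 7.74. No cause was tested.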

How the results depend on the processing

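In 18 alternatives, 0 proteasome genes passed, and the lowest adjusted p of any of the 22 genes given on every array was 0.33. Of 386 recomputed changes of these genes, 357 kept their direction and 29 turned. The genes called over all genes, 2 as reported, were 1 after median centring, cyclic loess, the intensity trend and the background covariate, and 7 with a replicate block. They were 1 to 11 with single arrays left out, the 11 without hemophagocyte 2. Members with higher values at an unadjusted p under 0.05 (6) were 0 without hemophagocytes 3 and 5 and 4 to 6 with single arrays left out. Those with lower values (2) were 1 after quantile, median or cyclic loess scaling, with the background covariate or without hemophagocytes 3 and 5, 0 under the level filter, which kept 21 of 50 members, and 0 to 3 with single arrays left out. The median change of the 5 induced genes was 0.21 without hemophagocytes 3 and 5, and 0.18 to 0.40 with single arrays left out, the lowest without hemophagocyte 5. Their sign was positive for 5 of 5 in all fits that held them, and the filter dropped Psmb10. The median of the other members (0.06) was 0.10 after quantile or cyclic loess scaling, 0.11 under the filter, 0.010 without hemophagocytes 3 and 5, and 0.04 to 0.08 with single arrays left out.

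Signs turned for Psmc3 after median centring (0.0081) and cyclic loess (0.035), for Psmb11 after cyclic loess (0.0059) and for Psmb1 with array weights (-0.018). Without hemophagocytes 3 and 5 they turned for Psmb1 (-0.083), Psmd8 (-0.11) and Psmd5 (0.023). With the background covariate they turned for Psmb4 (-0.35), Psmb1 (-0.19), Psmb6 (-0.021), Psmb7 (0.10) and Psmd5 (0.057). With single arrays left out, Psmb6 ran from -0.040 to 0.13, Psma8 from -0.055 to 0.12, Psmb11 from -0.12 to 0.061, Psmb1 from -0.084 to 0.12 and Psmc3 from -0.12 to 0.017. The causes were not tested. Titles share the numbers 3, 5 and 6, but nothing says that a number pairs arrays, so the numbers were not taken as pairs. Deviations of same-numbered arrays correlated at 0.17, 0.07 and 0.12, and those of differently numbered arrays at -0.24 to 0.18. These ranges overlap, so the correlations cannot decide whether arrays are paired. With the replicate block, which compares only arrays 3, 5 and 6 of each group, Psmb5 (-0.064), Psmb6 (-0.10), Psma8 (-0.12), Psmb11 (0.11) and Psmc3 (0.022) turned.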
